A study of Mus musculus with 20 samples.

Results

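The 4 tumors described here are the baseline of a mouse study: HEPA1-6 tumors whose hosts received a control antibody and no drug. They were chosen by that label alone and are replicates 1, 2, 3 and 5 of the group, 4 of the 19 libraries that carry values out of 20 labelled samples. The control library numbered 4 was not analysed here. HEPA1-6 is a mouse hepatoma line. Its cells were placed under the skin of C57/BL6 mice, and the tumors grew for 4 weeks. The 3 other groups, of 5 libraries each, were the same graft with the control antibody and GSK343 (an inhibitor of the histone methyltransferase EZH2), with an antibody against the chemokine CXCL10, or with both agents. An antibody was injected in every group, the control included. The other groups are used here to set the spread, list shares and ranks of the control tumors beside those of the series. RNA was selected for poly-A tails and sequenced from whole tumors. The labels do not say whether each tumor came from a separate mouse, so p-values measure only the spread between these samples.

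Hepatocytes make most proteins of blood plasma, among them albumin, transferrin and fibrinogen. They do so under a small set of transcription factors, including HNF4A, the FOXA proteins and C/EBP proteins. Hepatoma cells often keep part of that program and express genes of the fetal liver, such as Afp (alpha-fetoprotein). A tumor grown in a mouse also holds host cells: macrophages, lymphocytes, fibroblasts, vessels and blood, and tissue at its edge. Tumor and host are both mouse here, so a transcript is placed only by what its gene is known to mark. In bulk RNA, fewer cells of a type and less RNA per cell cannot be told apart.

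Values are FPKM, fragment counts scaled by the authors to gene length and library size, so levels may be compared roughly between genes and libraries. A relation of library deviations to exon length remained and is given at the end. The number of reads behind a value, and so its counting error, is unknown. The 4 libraries summed to between 569370 and 609701 FPKM over 14633 genes, of which 13385 to 13777 reached 1 FPKM. Pearson's r of log2(FPKM + 1) across genes was between 0.965 and 0.973 for the 6 pairs of control libraries, and genes are not independent replicates. No control library stood apart by this measure. Xist, the RNA of the inactive X chromosome, was at 91.3, 113, 98.3 and 95.9 FPKM in replicates 1, 2, 3 and 5, and the Y-linked gene Ddx3y was at 2.89, 4.19, 3.97 and 2.86 FPKM. Both were thus present in all 4 tumors, and which cells carried either was not tested. Of the genes named below, Trf, Cebpb, Glul, Ccnd1, Top2a, Notum, Cd74, Ecscr and Xist also overlap another listed gene, so reads could be split between them. All values per tumor below are in the order of replicates 1, 2, 3 and 5.

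Among named genes, the transcriptome of the control tumors was headed by ribosomal protein genes and by hepatocyte secretory genes. The 10 genes of highest mean level held 8.30%, 7.19%, 7.13% and 8.39% of FPKM. Those of them not named here, some of them above every named gene, were left out by the naming rule and are not described. The 79 cytosolic ribosomal protein genes held 18.2% ± 0.659 (SD, n = 4) of all FPKM. Their highest member was Rps14, a protein of the small ribosomal subunit on chromosome 18, at 5936, 4332, 5348 and 4872 FPKM, at rank 3 of mean level. Rps26 and Rps12 followed it among named genes with means of 4231 ± 421 and 4001 ± 230 FPKM (SD, n = 4). These levels differed little between tumors, and the 100 genes highest in mean level held 33.7%, 30.4%, 31.6% and 32.6% of FPKM. Between 314 and 404 genes made up the first 50% of a library.

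Hepatocyte genes stood directly among them. Apoe, an apolipoprotein made by hepatocytes and macrophages alike, was at 4345, 3964, 3158 and 1931 FPKM (rank 10). Alb, the gene of serum albumin (chromosome 5, 90460889 to 90476603, GRCm38), was at 3243, 2790, 3209 and 2775 FPKM (rank 14). Albumin was thus near-level across tumors, while Apoe in replicate 5 was below every other control tumor. Trf, the iron carrier transferrin, had a mean of 2289 ± 244 FPKM at rank 23. Afp, which lies beside Alb on chromosome 5 (90490714 to 90508907), followed it with 2643, 2000, 2387 and 2098 FPKM at rank 24. Igfbp1, a secreted binding protein of insulin-like growth factors made in liver, was at 2898, 2351, 3152 and 2142 FPKM (rank 19). The remaining named genes of the first 25 were mostly ribosomal. They also held B2m, the light chain of MHC class I, at 2874 ± 274 FPKM, the iron store gene Fth1 at 2448 ± 130 FPKM, the growth-related gene Tpt1 at 3749 ± 345 FPKM and the elongation factor Eef1a1 at 2146 ± 74.8 FPKM. Yam1 showed the widest range of these 25, at 5571, 2745, 1460 and 2889 FPKM, and its annotation overlaps that of another listed gene.

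**Figure D1:**
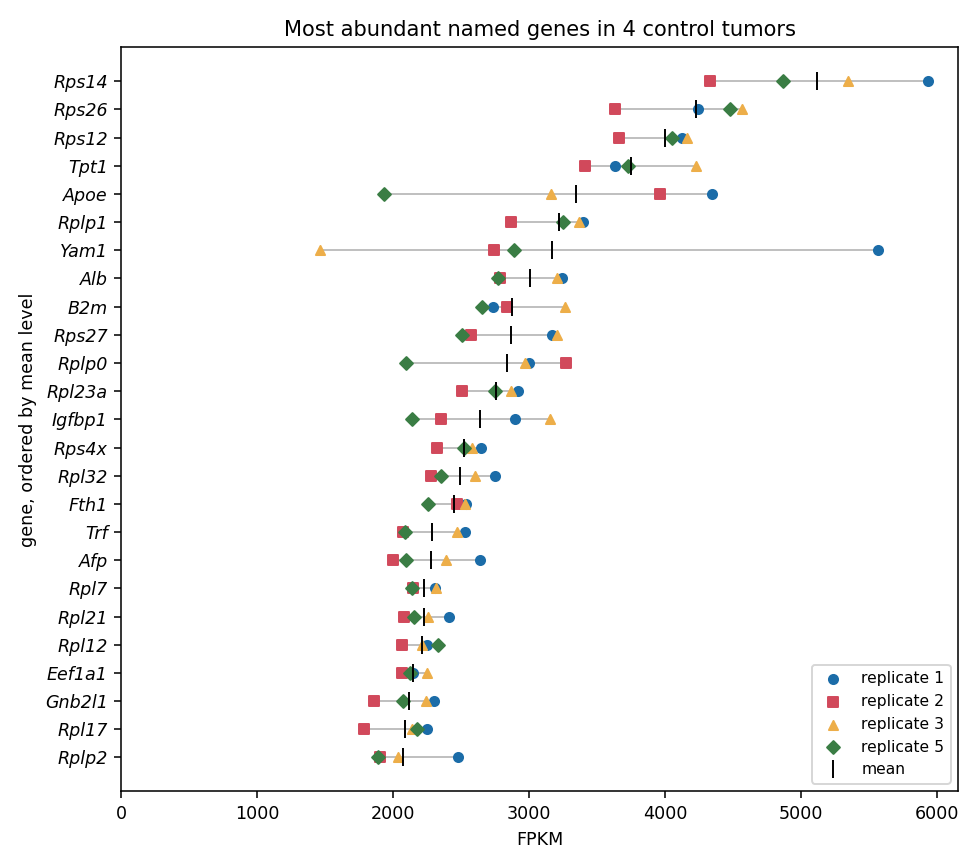
FPKM (linear axis) of the 25 named genes with the highest mean level, by gene. Each marker is 1 control tumor, the grey line spans the lowest to the highest tumor and the black tick is the mean. Most ribosomal genes have a narrow range, while Apoe (1931 to 4345) and Yam1 (1460 to 5571) have wide ones.

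Part of the total lay outside named genes. Protein-coding genes held 80.6% ± 1.35 of FPKM and pseudogenes 13.3% ± 0.872. Gene models of the miRNA class held 5.17%, 3.74%, 2.95% and 4.37%. The files do not say whether such short or copied models were counted from reads that also match other genes.

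Hepatocyte genes held more of the transcriptome than leukocyte genes or stromal genes, each by the sum of its marker lists. The hepatocyte lists together (109 genes, led by Alb) held 2.53%, 2.13%, 2.39% and 2.02% of FPKM. Leukocyte lists (123 genes, led by Cd74) held 0.900%, 1.07%, 1.18% and 0.702%. Lists of fibroblasts, endothelium and pericytes (56 genes, led by Dcn) held 0.655%, 0.864%, 0.759% and 0.709%. The hepatocyte share was above the leukocyte share and the stromal share in each of the 4 tumors, but not above the sum of the leukocyte, stromal and skin, fat, muscle and blood lists, which was 1.71%, 2.30%, 2.49% and 1.53% and exceeded it in replicates 2 and 3. Apoe, Des, Prox1 and Thy1 are on lists of several of these classes and were left out of the sums. Counted in each class they are listed under, they brought the mean leukocyte share from 0.962% to 1.54% and the hepatocyte share from 2.27% to 2.84%, and the latter stayed above the former in every control tumor. Skin, fat, muscle and blood lists (53 genes, led by Hbb-bs) held 0.158%, 0.372%, 0.553% and 0.116%, and had the widest range relative to their mean. These shares are sums of transcript levels over chosen genes and not proportions of cells.

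**Figure D2:**
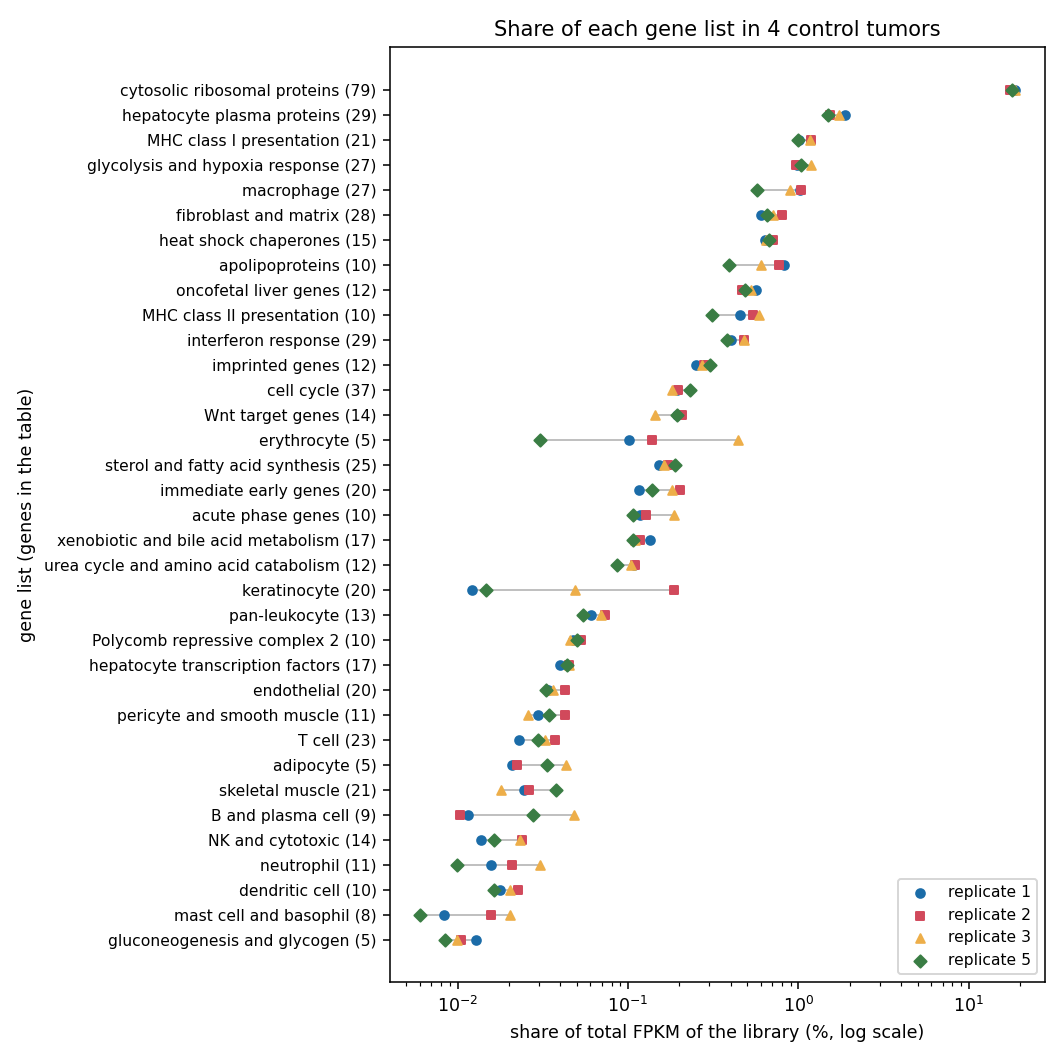
Share of total FPKM (%, log axis) held by each marker or pathway list with 5 or more genes in the table. Each marker is 1 control tumor and the grey line spans their range. Ribosomal genes lead (18.2% on average), most lists lie close together across tumors, and the erythrocyte and keratinocyte lists range 14.5-fold and 15.2-fold.

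Plasma protein genes were abundant in every control tumor but not equally so. Of 34 listed genes 29 were measured, and together they held 1.88%, 1.53%, 1.73% and 1.48% of FPKM. Their highest level was in replicate 1 for 25 of 29 genes, and their lowest was in replicate 5 for 25 of 29. Over all genes, replicate 1 was highest for 17.6% and replicate 5 lowest for 28.3%. Alb, Trf and Afp, its most abundant members, varied little, and so did some others. Rbp4, the carrier of retinol, was at 777, 624, 783 and 766 FPKM, and the vitamin D carrier Gc was at 84.4, 75.1, 72.5 and 65.7 FPKM. The range was wider in other members. Gc and the members that follow were named after their values were seen. Ambp, the precursor of alpha-1-microglobulin and bikunin, was at 314, 80.9, 150 and 59.7 FPKM. Ttr, the thyroid hormone carrier transthyretin, was at 293, 127, 85.5 and 57.2 FPKM. Both had their highest level in replicate 1 and their lowest in replicate 5, and the highest exceeded the lowest 5.26-fold in Ambp and 5.12-fold in Ttr.

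The fibrinogen chains, which assemble into the clotting protein, and fetuin differed between tumors as well. Fga was at 51.1, 7.88, 32.3 and 3.15 FPKM, a range of 16.2-fold. Fgb was at 160, 72.5, 138 and 65.8 FPKM, a range of 2.43-fold. Ahsg, the gene of fetuin-A, was at 45.5, 19.9, 49.9 and 3.40 FPKM. In these 3 genes replicates 1 and 3 were above replicates 2 and 5. An SD of log2(FPKM + 1) above 0.5 between the 4 tumors was reached by 16 of 29 plasma protein genes, against 7.88% of all genes. Their median SD was 0.63, and the median gene of the list lay at percentile 94.4 of SD among 500 genes of like level. The same list was spread in the other groups too, where 17 of 29 genes passed that limit against 8.86% of all genes.

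The transcription factors of the hepatocyte program were far steadier than its products. Of 22 listed factors 17 were measured, with shares of 0.0401%, 0.0452%, 0.0451% and 0.0438%. Hnf4a, a nuclear receptor central to hepatocyte identity, was at 26.1, 22.9, 23.5 and 23.4 FPKM. Foxa2 had a mean of 45.5 ± 3.84 FPKM, Foxa3 of 27.1 ± 3.74 and Cebpb of 74.2 ± 13.6 (SD, n = 4). The list's median SD was 0.12, below the 0.17 of all genes, and 1 of 17 exceeded 0.5. Its median gene lay at percentile 43 of SD among genes of like level, so the factors were ordinary for their level. In the other groups the list's median SD was 0.20 with GSK343, 0.26 with anti-CXCL10 and 0.18 with both. Over all genes it was 0.21, 0.21 and 0.18 there. Among 10 measured apolipoprotein genes, which serve lipid transport, 8 were highest in replicate 1 as well, against 17.6% of all genes. Apoa1, the main protein of high-density lipoprotein, was at 185, 107, 114 and 64.2 FPKM.

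Of 18 oncofetal genes 12 were measured, and Afp made up 75.6% of their summed FPKM. Without it the list held 0.124% of FPKM in place of 0.510%. Tspan8, a tetraspanin, was at 402, 317, 370 and 411 FPKM, and Cd24a, a surface glycoprotein of progenitor cells, at 163, 170, 168 and 165 FPKM. Gpc3, the proteoglycan glypican-3, was at 130, 37.8, 123 and 50.5 FPKM. Gpc3 alone of the 12 measured genes on this list exceeded an SD of 0.5, with replicates 1 and 3 above the other two. Of the acute phase genes, which the liver raises in inflammation, 10 of 19 were measured. Of those, 8 were highest in replicate 3, against 24.8% of all genes. C3, the central complement protein, was at 206, 240, 392 and 171 FPKM. Haptoglobin, Hp, was at 20.4, 17.0, 80.9 and 30.7 FPKM, and Saa3, a serum amyloid, at 3.56, 12.0, 41.3 and 3.35 FPKM. Hp and Saa3 were named after their values were seen. Saa1, Saa2, Orm1, Orm2 and Crp of this list were not among the measured genes. Which cells carried the acute phase transcripts was not tested.

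Metabolic enzymes of the adult liver were present in part. Of the xenobiotic and bile acid list 17 of 31 genes were measured, led by the glutathione transferase Gstp1 at 228 ± 24.8 FPKM. Of the urea cycle and amino acid list 12 of 20 were measured, and of the gluconeogenesis and glycogen list 5 of 11. Glul, glutamine synthetase, was at 338, 321, 198 and 214 FPKM. Arg1, an arginase of both hepatocytes and macrophages, was at 36.1, 40.9, 133 and 43.0 FPKM, so replicate 3 exceeded the other 3 tumors. The urea cycle genes Cps1 and Otc, the gluconeogenic genes G6pc and Pck1 and the bile acid gene Cyp7a1 were not analysed here. The label of a hepatoma was thus met by plasma proteins, Afp and the transcription factors, and could be checked only in part for the enzymes.

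Cell cycle genes differed little between tumors. All 37 listed cell cycle genes were measured and none exceeded an SD of 0.5, with a median SD of 0.13. Ccnd1, cyclin D1, was at 164, 180, 143 and 225 FPKM. Pcna, the sliding clamp of DNA replication, was at 103, 92.5, 97.4 and 129 FPKM, and Top2a, a topoisomerase of dividing cells, at 91.3, 89.6, 86.9 and 110 FPKM. All 3 were highest in replicate 5, as were 21 of the 37, against 28.2% of all genes. The 14 Wnt target genes lay at a median percentile of 89.0 of abundance, and their median SD of 0.22 was above the 0.17 of all genes. Notum, a secreted Wnt inhibitor, was at 154, 154, 71.4 and 120 FPKM, and Nkd1, another feedback inhibitor, at 125, 128, 106 and 122 FPKM. Of the 14 targets 9 were lowest in replicate 3, against 23.7% of all genes. The 10 measured genes of Polycomb repressive complex 2, which methylates histone H3 and is the drug's target in the treated groups, had a median SD of 0.14. Its catalytic gene Ezh2 was at 31.8, 31.9, 25 and 29.9 FPKM, and Rbbp7 at 110, 123, 105 and 105 FPKM.

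Glycolysis and hypoxia genes held 0.977%, 0.970%, 1.19% and 1.03% of FPKM, and 23 of 27 were highest in replicate 3. Over all genes, replicate 3 was highest for 24.8%. Aldoa, the glycolytic aldolase, was at 1087, 1079, 1351 and 1034 FPKM, and Ldha, lactate dehydrogenase, at 1064, 922, 1141 and 1023 FPKM. Bnip3, a hypoxia target that acts in mitophagy and was named after its values were seen, was at 215, 171, 338 and 254 FPKM. The differences were small in size, since none of the 27 genes exceeded an SD of 0.5. The 25 sterol and fatty acid synthesis genes had a median SD of 0.15, with Scd2, a fatty acid desaturase, at 156, 173, 188 and 231 FPKM.

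Host immune transcripts were led by antigen presentation and macrophage genes. Cd74, the invariant chain of MHC class II, was at 876, 1025, 1147 and 544 FPKM (rank 98). H2-Aa was at 547, 617, 676 and 370 FPKM and H2-Eb1 at 486, 517, 572 and 363 FPKM. In all 3, replicate 5 was lowest and replicate 3 highest, and 9 of the 10 measured class II genes were lowest in replicate 5. The complement genes of tissue macrophages followed the same order: C1qb was at 194, 207, 250 and 103 FPKM and C1qa at 187, 195, 224 and 99.5 FPKM. Of 27 macrophage genes 24 were lowest in replicate 5, against 28.3% of all genes. Apoe made up 64.7% of the macrophage list, and without it the list held 0.310% of FPKM in place of 0.877%. MHC class I presentation, a task of tumor and host cells alike, was more even: its 21 genes held 1.09% ± 0.1 of FPKM, and H2-D1, a class I heavy chain, was at 1118, 1308, 1234 and 1008 FPKM. Among 10 dendritic cell genes Irf8, a factor of their development, was highest at 31.6, 43.3, 48.1 and 39.4 FPKM. Ptprc, the common leukocyte antigen CD45, was at 8.73, 11.8, 11.2 and 8.80 FPKM.

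Lymphocyte transcripts were at lower levels. Trbc2, a constant region of the T cell receptor, was at 16.8, 27.5, 28.3 and 28.4 FPKM, and Cd3g, a subunit of its complex, at 11.5, 15.5, 19.8 and 13.0 FPKM. Replicate 1 was the lowest tumor for 18 of the 23 measured T cell genes, against 28.7% of all genes. Ccl5, a chemokine of T and NK cells, was at 43.0, 83.3, 67.7 and 51.6 FPKM, and Gzmb, a killing protease, at 9.18, 9.83, 16 and 9.09 FPKM. Ifng, the gene of interferon gamma, was at 2.25, 2.23, 3.62 and 2.34 FPKM. The chemokines that interferon gamma induces were far more abundant. Cxcl10, the target of the antibody used in other groups, was at 73.1, 112, 123 and 79.2 FPKM, and its gene overlaps Art3. Cxcl9 was at 44.8, 63.4, 90.2 and 43.6 FPKM. Their shared receptor gene Cxcr3 had a mean of 0.816 ± 0.267 FPKM. Replicates 2 and 3 were above replicates 1 and 5 for both chemokines. Of 29 interferon response genes 22 were highest in replicate 3, against 24.8% of all genes. Their most abundant member Ifitm3, at 1268, 1206, 1095 and 1031 FPKM, was not.

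B and plasma cell transcripts differed widely. Igkc, the kappa light chain constant region, was at 16, 2.09, 172 and 62.2 FPKM, and Ighm, the heavy chain of IgM, at 4.37, 5.15, 48.3 and 42.8 FPKM. Igj, the joining chain, was at 0.763, 0.153, 9.32 and 9.24 FPKM. Replicates 3 and 5 were above replicates 1 and 2 for all 3, by up to 82.3-fold for Igkc. The remaining abundant member Sdc1, a syndecan also made by epithelial cells, was at 44.9 ± 2.93 FPKM and did not follow them. Mast cell proteases were highest in replicate 3, where Mcpt4 reached 31.8 FPKM against 13.2, 27.4 and 11.4 FPKM in replicates 1, 2 and 5. The neutrophil genes S100a9 and S100a8 were at 54.6 and 52.8 FPKM in replicate 3 and at 12.2 and 6.96 FPKM in replicate 5. The granule gene Ngp was between 0 and 0.138 FPKM.

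Stromal genes were led by matrix genes. Dcn, the proteoglycan decorin, was at 1180, 1211, 1208 and 1400 FPKM, and Fn1, fibronectin, at 1060, 1183, 1183 and 981 FPKM. Collagen genes were lower and less even. Col1a1, a chain of type I collagen, was at 116, 243, 159 and 104 FPKM, and Col3a1, of type III collagen and named after its values were seen, at 84.2, 158, 139 and 73.3 FPKM. Replicate 2 was the highest tumor for 19 of the 28 fibroblast and matrix genes, and over all genes for 29.5%. Endothelial genes had a median SD of 0.24, with Ecscr at 67.9 ± 11.2 FPKM and Esam at 42.0 ± 2.32 FPKM. Pericyte genes were led by Rgs5 at 50.4, 68.1, 32.5 and 65.2 FPKM.

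Keratinocyte genes gave the widest range of any list with 5 or more genes. They held 0.0122%, 0.185%, 0.0486% and 0.0147% of FPKM, and 18 of 20 were highest in replicate 2, against 29.5% of all genes. Without replicate 2 their mean share was 0.0251% in place of 0.0652%. Krt14, the keratin of basal epidermis (chromosome 11, 100203162 to 100207548), was at 0.0506, 205.1, 34.1 and 1.22 FPKM. Krt1, of the layers above, was listed at 0 in replicate 1 and was at 101, 18.3 and 0.486 FPKM in the others. Krt10, the partner of Krt1, was at 1.81, 74.7, 23.7 and 2.74 FPKM. Krt6b and Krt16, keratins of hair follicle and stressed epidermis, were listed at 0 in replicates 1 and 5 and reached 97.7 and 106 FPKM in replicate 2. Replicate 2 was high, replicate 3 lower and replicates 1 and 5 near 0. Perp, a desmosome protein of many epithelia, was at 40.4, 83.5, 43.8 and 51.1 FPKM and followed this order only in part. The list was uneven elsewhere in the series as well: its share ran from 0.00887% to 0.101% in the 15 libraries of the other groups, where 18 of 20 genes passed an SD of 0.5.

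Promoters of 3 keratinocyte genes are shown since the list was high as a whole in replicate 2. They are the most abundant listed members whose 150 bases before the RefSeq start (GRCm38.p6) hold TATAAA. They are printed 5′ to 3′ on the gene's strand, and capitals mark that box, the box CCAAT and the AP-1 letters TGANTCA on either strand.
Krt10 (chr11:99389365-99389514, minus strand): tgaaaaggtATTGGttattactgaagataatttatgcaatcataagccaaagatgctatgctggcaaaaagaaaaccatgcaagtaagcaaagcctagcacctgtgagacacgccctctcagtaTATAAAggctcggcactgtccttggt
Krtdap (chr7:30787755-30787904, plus strand): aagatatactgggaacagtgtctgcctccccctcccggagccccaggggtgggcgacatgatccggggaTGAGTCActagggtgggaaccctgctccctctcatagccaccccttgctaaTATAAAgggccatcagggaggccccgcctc
Flg (chr3:93273396-93273545, plus strand): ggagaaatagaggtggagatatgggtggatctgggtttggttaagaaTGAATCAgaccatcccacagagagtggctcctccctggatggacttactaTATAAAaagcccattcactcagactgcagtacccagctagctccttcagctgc
TATAAA began 26 bases before the start in Krt10, 30 in Krtdap and 53 in Flg. A promoter was found for 13 of the 20 keratinocyte genes, and 4 of them (30.8%) held TATAAA between 45 and 16 bases before the start, against 1.58% of the 9494 promoters matched to any measured gene and 2.36% of all 27025 promoters. A match describes letters and is not a measured binding site. Within 250 bases before the start, TGANTCA was in 5 of the 13 (38.5%), against 4.68% and 6.87%. CCAAT was there in 3 of the 13 (23.1%), against 36.7% and 34.5%. TGANTCA was also in 7 of 24 plasma protein promoters (29.2%), 1 of 12 of hepatocyte factors and 2 of 58 of ribosomal genes. For TATAAA between 45 and 16 bases before the start, these lists had 1 of 24, 2 of 12 (16.7%) and 0 of 58. Krtdap, a differentiation protein of keratinocytes, was listed at 0 in replicate 1 and was at 32.1, 16.7 and 0.8 FPKM in the others.

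Blood, muscle and fat genes also differed between tumors. The globin genes were highest in replicate 3 and lowest in replicate 5 in all cases. Hbb-bs, a beta globin, was at 189, 233, 859 and 47.3 FPKM, and Hba-a2, an alpha globin, at 179, 226, 724 and 56.0 FPKM. The 5 measured erythrocyte genes held 0.178% of FPKM on average and 0.0902% without replicate 3. Skeletal muscle genes were low and highest in replicate 5 for 16 of 21, against 28.2% of all genes. Acta1, skeletal actin, was at 12.8, 13.4, 5.77 and 22.7 FPKM. Of the 21 genes 14 exceeded an SD of 0.5, and their median SD of 0.61 was below the 1.42 of the other groups, where the list's share reached 0.523% against at most 0.0378% here. Cfd, the adipokine adipsin, was at 2.66, 2.77, 39.7 and 28.6 FPKM, and Car3, a carbonic anhydrase of fat and muscle, at 5.24, 4.95, 29.6 and 24.2 FPKM. Both were high in replicates 3 and 5 and low in replicates 1 and 2, as Igkc and Ighm were. Lpl, lipoprotein lipase, was at 76.8 ± 8.12 FPKM and did not follow them. The part of skin, blood, muscle or fat tissue in any other value was not tested.

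**Figure D3:**
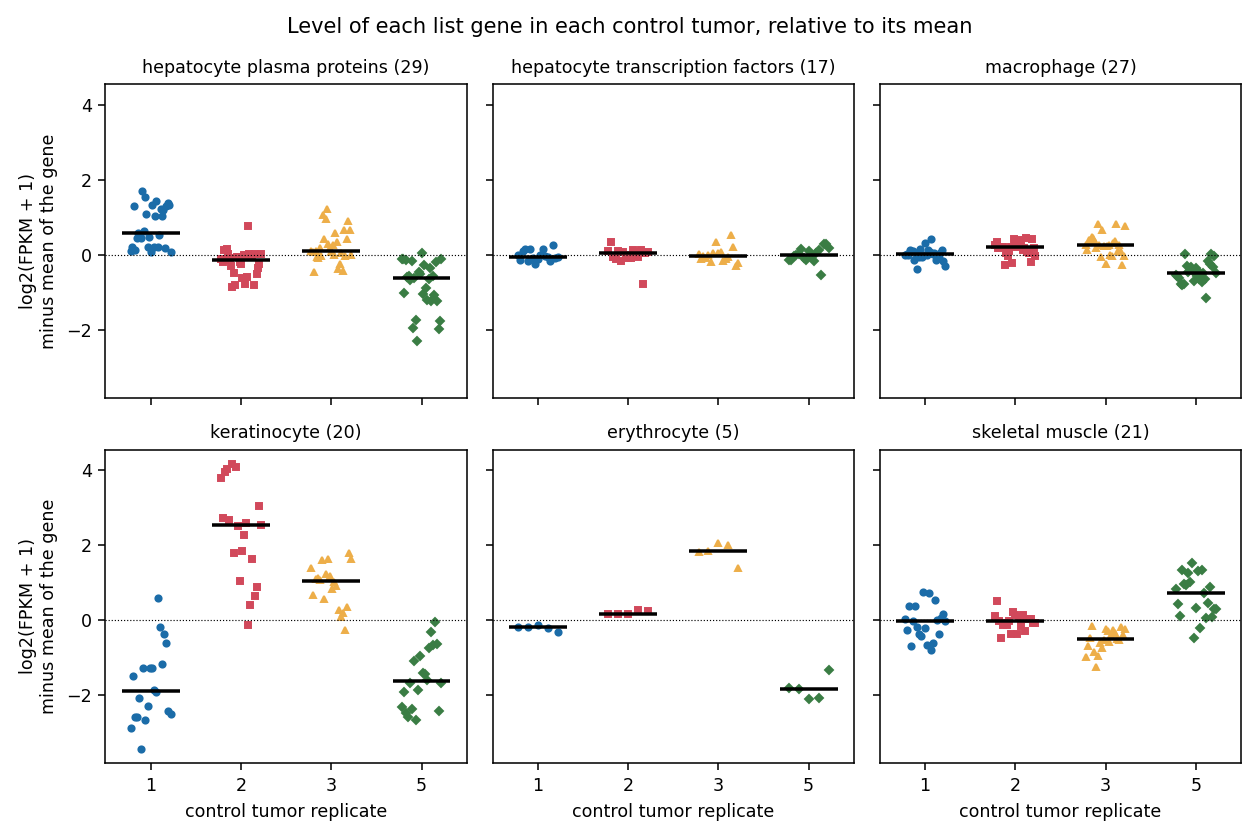
Level of each gene of 6 lists in each control tumor, as log2(FPKM + 1) minus the gene's mean over the 4 tumors. Each point is 1 gene and each black bar the median of the list in that tumor. Plasma proteins are highest in replicate 1 and lowest in replicate 5, keratinocyte genes high in replicate 2, globins high in replicate 3, muscle genes high in replicate 5, and transcription factors near 0 throughout.

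Most genes differed little between the control tumors. The SD of log2(FPKM + 1) had a median of 0.17 over all genes, and 90% of genes lay between 0.06 and 0.62. The limit of 0.5 was exceeded by 1153 genes (7.88%), with 11.3% of genes below 2 FPKM and 4.95% of genes at or above 100 FPKM. Among genes of at least 50 FPKM the steadiest was Txndc17, a thioredoxin-like protein, at 118, 118, 120 and 117 FPKM. Capza2 and Capzb, the chains of the actin capping protein, and Psmd3, a subunit of the proteasome, were also among the 8 steadiest.

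The 15 most variable named genes at 5 FPKM or more were mostly of 2 kinds. The first were genes highest in replicate 2, most of them epidermal: Krt14, Krt16, Krt6b, Krt1, Krt6a, Lgals7, Krtdap, Calm4, Sprr2a2 and Stfa3. The second were genes with near-identical copies or overlapping neighbours, whose values are uncertain because reads could be split between them. Eno1b, a near copy of Eno1, was at 76.8 and 74.6 FPKM in replicates 1 and 2 and listed at 0 in replicates 3 and 5. Gstp2, a near copy of Gstp1, was at 141, 117 and 125 FPKM and listed at 0 in replicate 5, while Gstp1 was at 225 FPKM there. Usp50, which overlaps Usp8, was at 14.1 and 73.8 FPKM in replicates 1 and 3 and listed at 0 in the others. Fam221b and Zbed5 completed the 15. In all, 37 genes were listed at 0 in a control tumor and at 10 FPKM or more in another. Of these, 9 were on the keratinocyte list and 12 overlapped another gene, against 23.9% of all genes.

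**Figure D4:**
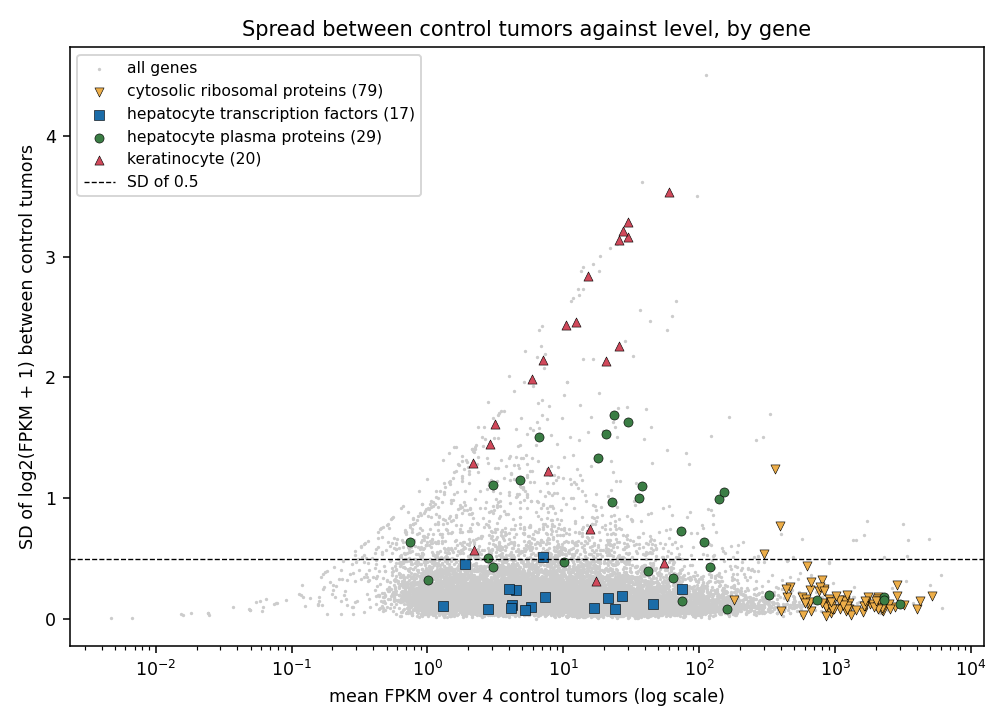
SD of log2(FPKM + 1) between the 4 control tumors (linear axis) against mean FPKM (log axis), 1 point per gene. Grey points are all genes, coloured markers are 4 lists and the dashed line is an SD of 0.5. Keratinocyte genes lie highest, 16 of 29 plasma protein genes lie above the line, and all but 1 of the transcription factors and nearly all ribosomal genes lie below it.

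The spread of the control tumors was compared with that of the 3 other groups, which asks whether the baseline is more or less uniform than treated tumors. The median SD was 0.17 in the controls and 0.21, 0.21 and 0.18 with GSK343, with anti-CXCL10 and with both. Of the 1153 genes above 0.5 in the controls, 698 (60.5%) also exceeded it in the pooled SD of the other groups, and these were 53.9% of the 1296 genes (8.86%) that did so there. Spearman's rho between both SDs was 0.57 across genes, which are not independent. Per gene, limma on absolute deviations with Benjamini-Hochberg adjustment called 26 genes of 14633 more spread in the controls (0.178%) and 0 less spread. At an unadjusted p below 0.05 the counts were 403 and 321. A smaller spread was hard to call with so few control tumors. Even Txndc17, with an SD of 0.012 in the controls and 0.154 pooled in the other groups, was not called (limma, adjusted p = 0.90). The 0 therefore does not show that no gene was steadier in the controls. None of the 26 was on any of the 38 gene lists, which hold only 629 of the 14633 genes.

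In each of the 10 genes named from these by rule, 1 or 2 control tumors lay far below the others. Gorab, a Golgi protein, was at 10.4, 0.777, 11.8 and 0.926 FPKM, while the 15 libraries of the other groups lay between 9.83 and 13.6 FPKM (limma, adjusted p = 1.3e-10). Ets1, a transcription factor of lymphocytes and endothelium, was at 2.84, 16.1, 15 and 2.51 FPKM, against 9.88 to 18.2 FPKM (limma, adjusted p = 7.24e-05). Specc1l, a cytoskeletal protein, was low in the same replicates 1 and 5, at 2.07, 9.83, 8.90 and 2.34 FPKM (limma, adjusted p = 5.74e-06). Mapk1ip1, which overlaps Ppp2r2d, was low in replicates 2 and 3 instead, at 8.98, 1.39, 1.81 and 8.03 FPKM (limma, adjusted p = 1.05e-06). Taf9, a subunit of the general transcription factor TFIID whose gene overlaps Ak6, was at 19.4, 23, 23 and 0.157 FPKM. Hnrnpu, a nuclear RNA-binding protein, was at 84.9, 79.4, 28.7 and 24.8 FPKM, and its gene also overlaps another. The peroxisome gene Pex2, the RNA cap methyltransferase Cmtr2, the diphthamide enzyme Dph6 and the phosphatase Cdc14a were each low in 1 tumor. Of the 26 genes 8 overlap another listed gene, against 23.9% of all genes. Only 5 of the 26 (Gorab, Ets1, Mapk1ip1, Specc1l and, outside the rule, Slc36a1) were called in each of 19 fits that left out 1 library. In each of these 5 genes, 2 control tumors were low and 2 were high. Deviations from the group mean are then alike in size, which keeps the standard error small. A gene low in 1 tumor loses its spread once that tumor is left out. These fits therefore depend on the pattern and do not rank the genes by reliability.

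**Figure D5:**
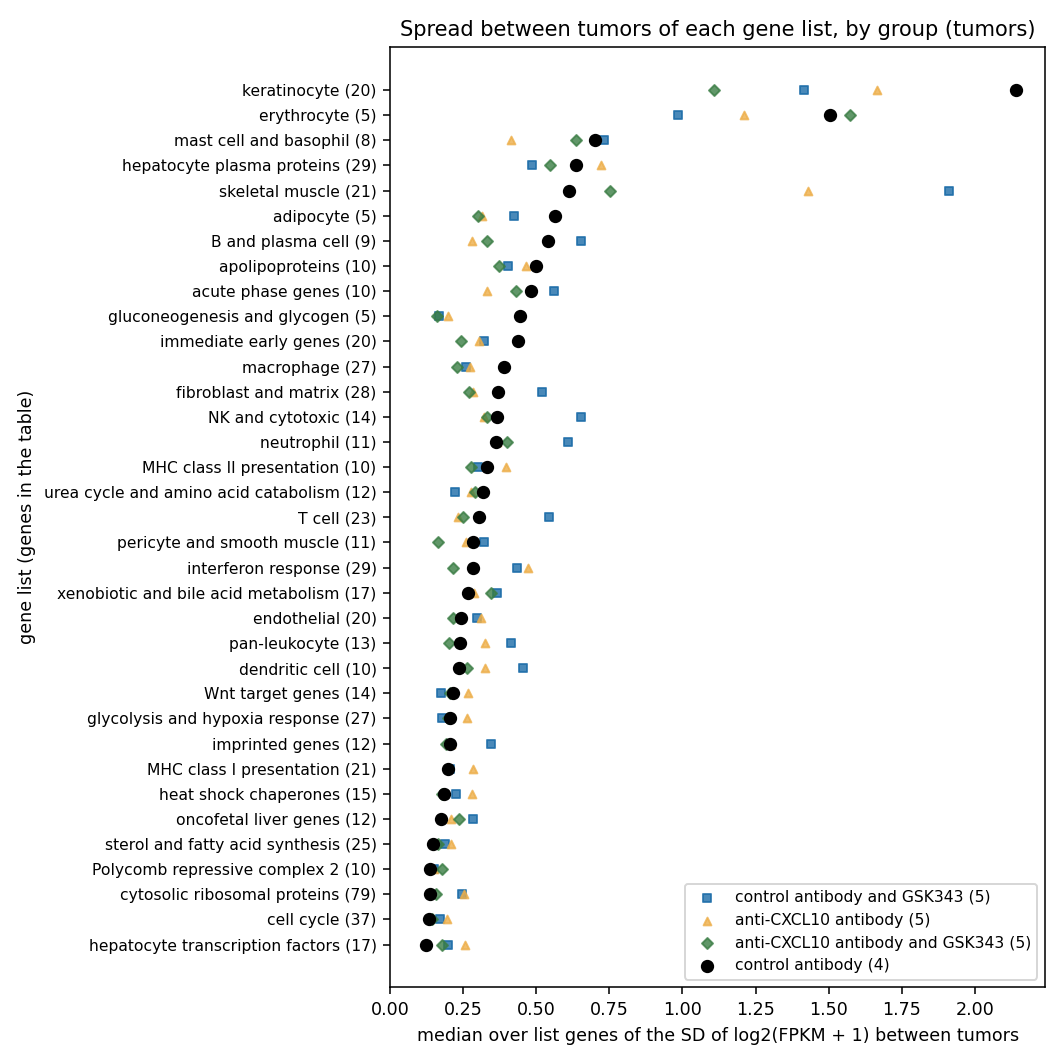
Median over each list of the SD of log2(FPKM + 1) between tumors (linear axis), for lists with 5 or more genes in the table. Black points are the 4 control tumors and coloured markers the 3 other groups of 5. Keratinocyte, erythrocyte and plasma protein lists are widely spread in every group, and the muscle list is more spread in the other groups (pooled 1.42) than in the controls (0.61).

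The order of abundance itself was shared across the series. Of the 25 named genes highest in the controls, 21 were among the 25 highest with GSK343, 24 with anti-CXCL10 and 24 with both. Spearman's rho of mean levels across genes was 0.97, 0.99 and 0.99, as a description.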

How the data were processed

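RNA-seq of HEPA1-6 tumors was deposited as 1 table of FPKM values for 19 libraries. Per the submitters' processing notes, the authors' tools were StringTie 1.3.3b, HTSeq 0.6.0, HISAT2 2.1.0, TopHat2 2.1.0 as well as Trimmomatic 0.33, with the build GRCm38. The tools' roles, strand and filters are not given in the sources used here. Deposited FPKM values keep no depth. Where a gene ID had several rows (8 IDs, 21 rows), these were summed, which left 14633 genes. Every gene reached 1 FPKM in at least 4 libraries, so a filter at that level removed none. Lists were matched by symbol, and 629 of 774 listed genes were measured. Coordinates, biotypes and overlaps came from GENCODE M21 and promoters from RefSeq. The members and lists were chosen with earlier results of these data known.

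Values per tumor, shares of total FPKM and the SD of log2(FPKM + 1) are descriptions. Spread was tested with limma 3.58.1 in R 4.3.3 (trend and robust moderation) on absolute deviations from the group mean, scaled by group size, as control minus the mean of the 3 other groups, with a threshold of 0.05 after Benjamini-Hochberg adjustment. When tested on simulated data this fit called too many genes, because deviations within a group are correlated, so standard errors were corrected for that correlation, a change to the chosen design. Named genes were the 25 most abundant, up to 4 per list, the 15 most and 8 least variable, up to 10 past the threshold, and 10 key genes. Outside the lists and key genes, no antigen receptor segment, pseudogene or gene model without a name was named. Alternatives were other pseudocounts, filters, scalings and moderation, a replicate block, left-out libraries and, added after seeing the data, shares of protein-coding FPKM, class sums with genes of several classes, a fit without genes at 0 and a fit without the correction. Median-ratio scaling moved the median of a control library by at most 0.04 (log2).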

Additional observations from a re-analysis of the deposited data

Results flagged for a closer look

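In 9 of 66 named genes, 1 control tumor lay far from the other 3 on the log2 scale by Dixon's criterion for 4 samples, and in none of 37 lists. For normally distributed values chance alone gives about 1 in 20, and the counts over all genes are given below. Low values were Gstp2 listed at 0 FPKM in replicate 5, Zbed5 at 1.33 in replicate 1, Taf9 at 0.157 in replicate 5, Cmtr2 at 0.849 and Cdc14a at 1.73 in replicate 2, and Dph6 at 1.5 and Pex2 at 8.73 in replicate 3. High values were Sprr2a2 at 53.5 FPKM in replicate 2 and Ifng at 3.62 FPKM in replicate 3. Apart from Ifng, these genes were named for a large spread, so a distant tumor is partly a result of that choice. By the same criterion over all 14633 genes, replicates 1, 2, 3 and 5 were the distant high tumor for 62, 127, 123 and 146 genes. They were the distant low tumor for 99, 89, 96 and 142 genes.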

How the results depend on the processing

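The count of 26 genes more spread in the controls was 10 with squared deviations, 13 (and 4 less spread, 17 in all) without trend or robust moderation and 69 without the correction for correlated deviations. Leaving out 1 library gave 21 to 44, with 44 without control replicate 1. With a replicate block it was 21, but same-numbered libraries did not all correlate: of 12 such pairs 6 were above 0.1 (from -0.17 to 0.26), among them replicate 2 with each other group (0.15, 0.26 and 0.19), and in 5 the control library correlated best with its own number. The share of the 100 most abundant genes was 27.0% without ribosomal genes. Without its lead gene the hepatocyte share was 1.76% and the stromal share 0.535%, and of protein-coding FPKM the hepatocyte, leukocyte and stromal shares were 2.81%, 1.19% and 0.925%. With genes of several classes counted in each, the hepatocyte share was 2.84% and the leukocyte share 1.54%. The median SD was 0.20 with a pseudocount of 0.1 and 0.11 with 5. The other 61 settings tried for these main results stayed within 1 SD or 1.5 times of the reported value. The tumor with the highest level changed for 9 of 37 lists when genes were weighted equally, among them the macrophage and T cell lists. The causes were not tested. Depth is unknown, so counting error of low genes could not be given.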

Other observations

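Immediate early genes are transcription factors and feedback genes induced quickly by many stimuli. Of 20 measured genes 17 were lowest in replicate 1, against 28.7% of all genes. Fos was at 15.6, 62.3, 27.4 and 23.5 FPKM in replicates 1, 2, 3 and 5, and Junb at 133, 209, 261 and 157 FPKM. Of the 20 genes 9 exceeded an SD of 0.5, against 7.88% of all genes. In the other groups 1 did so by the pooled SD, against 8.86% of all genes. An SD pooled over 3 groups varies less than that of the controls alone. The list's median SDs were closer, at 0.44 in the controls and 0.34 pooled. Heat shock chaperones differed less by median SD, at 0.18 in the controls, and held a share of 0.664% ± 0.0303 (SD, n = 4). Their lead gene Hsp90ab1 was at 943, 885, 792 and 914 FPKM. Even so, 3 of the 15 chaperone genes (20%) exceeded an SD of 0.5, against 7.88% of all genes. Among imprinted genes Dcn and Gnas were abundant, while Igf2 was at 2.80 ± 1.08 FPKM and H19 at 2.50 ± 0.368 FPKM. These are low levels beside Afp at 2282 ± 291 FPKM, although all 3 are genes of the fetal liver.

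Deviations of a library from the median of the other control tumors were related to exon length across genes, with Spearman's rho of -0.21, 0.20, -0.12 and 0.12 in replicates 1, 2, 3 and 5. This is a description, since genes share the library. The ribosomal gene Rps15a was at 177, 160, 942 and 165 FPKM and Rpl41 at 437, 462, 507 and 161 FPKM, against a median SD of 0.14 for their list. Arhgdib, a leukocyte gene, was at 56.0, 52.2, 16.3 and 11.4 FPKM, and so divided the tumors as Hnrnpu and Eno1b did. These genes were named after their values were seen.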
